A study of Homo sapiens with 8 samples.

Results

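The replication origins of HCT116 cells lacking ORC2 were set against those of the parental WT line over the 44170 origins of the table of both lines that lie on chromosomes 1 to 22 and X. These are all rows of that table on these chromosomes, of 133590 rows in the 3 tables that set WT against a knockout line. HCT116 is a human colon cancer epithelial line. The WT cells carry a deletion of p53 (HCT116 p53−/−), and the ORC2KO cells (ORC2Δ) were made from them with CRISPR–Cas9, so both lines lack p53. Both were grown in McCoy's 5A medium with serum, without any other treatment, and each was sampled in 2 biological replicates, of 8 samples over 4 lines. Whether the knockout line is 1 clone is not given in the sources used here.

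Origins were mapped by sequencing short nascent strands (SNS-seq), the RNA-primed pieces of new DNA that survive digestion with lambda exonuclease and mark where replication has begun. An origin is licensed in G1 phase, when the origin recognition complex (ORC), together with CDC6 and CDT1, loads the MCM2–7 helicase onto DNA as a double hexamer. ORC2 is one of the subunits of that complex, and its partner ORC3 depends on it closely. In human cells ORC has no strict sequence preference, and origins are known to gather at promoters, CpG islands and G-rich DNA and to fire in domains with a common timing.

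The table merges the replicates of a line, with 6640888 WT reads and 7808290 ORC2KO reads in origins. The median origin held 112 WT reads and 128 ORC2KO reads and was 540 bp wide. Reads were scaled to the column total as reads per 1000000 (RPM), and the log2 fold is log2 of the ORC2KO RPM over the WT RPM. Because there is 1 merged value per line, the spread of the replicates is unknown here and no test was made. Intervals are 95% intervals that cover counting error only, and reads are not independent molecules. An origin is said to have risen or fallen when the RPM in ORC2KO differed from that in WT by a factor of 1.5 or more. How many DNA copies a region has, how many cells use an origin and how often each does so cannot be told apart in these values.

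No origin of either line overlapped the ORC2 gene itself (chr2:200908977-200963680, minus strand), so the table does not check the knockout. The nearest origin lay 78.5 kb away on the BZW1 side, with 64 WT reads and 75 ORC2KO reads and a log2 fold of -0.0048. On the CFLAR side the nearest had 88 and 104 reads and a log2 fold of 0.0074. These flanking origins were of like strength in both lines.

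Sequences of 4 origins from each end of the list show what the most changed origins look like. For the origins with at least 200 reads in both lines together that rose most, the 200-base window with the strongest imbalance of G against C is printed from hg38, plus strand, 5′ to 3′, with the base in excess in capitals.
chr2:20164988-20165187 (origin near SDC1): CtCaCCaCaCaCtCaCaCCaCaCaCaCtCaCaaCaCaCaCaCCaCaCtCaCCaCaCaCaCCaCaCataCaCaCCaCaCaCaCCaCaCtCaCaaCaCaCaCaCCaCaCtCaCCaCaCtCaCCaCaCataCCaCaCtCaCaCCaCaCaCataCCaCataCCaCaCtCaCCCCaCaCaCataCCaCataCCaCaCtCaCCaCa
chr2:3527681-3527880: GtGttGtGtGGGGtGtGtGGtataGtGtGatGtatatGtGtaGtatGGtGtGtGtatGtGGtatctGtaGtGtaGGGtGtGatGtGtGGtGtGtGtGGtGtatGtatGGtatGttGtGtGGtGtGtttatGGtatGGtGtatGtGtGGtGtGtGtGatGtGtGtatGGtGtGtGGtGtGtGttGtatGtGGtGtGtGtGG
chr21:42293320-42293519 (intron of ABCG1): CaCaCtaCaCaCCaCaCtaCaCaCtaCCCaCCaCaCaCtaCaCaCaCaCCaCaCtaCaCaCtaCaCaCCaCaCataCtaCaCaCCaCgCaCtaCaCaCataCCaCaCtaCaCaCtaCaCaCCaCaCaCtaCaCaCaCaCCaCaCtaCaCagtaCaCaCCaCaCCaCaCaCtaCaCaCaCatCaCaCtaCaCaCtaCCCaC
chr7:157299507-157299706 (near UBE3C): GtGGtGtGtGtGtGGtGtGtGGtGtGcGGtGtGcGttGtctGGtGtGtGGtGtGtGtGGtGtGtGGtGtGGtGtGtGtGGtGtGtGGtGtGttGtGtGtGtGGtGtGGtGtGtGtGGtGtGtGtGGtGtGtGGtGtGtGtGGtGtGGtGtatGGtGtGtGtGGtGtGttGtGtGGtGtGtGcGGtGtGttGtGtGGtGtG
All 4 windows alternate C with A or G with T along 1 strand and hold almost none of the opposite base. The first window has 103 C and 0 G, and it matches itself at 76.0% of its bases when shifted by 29 bases. The fourth has 108 G and 4 C and matches itself at 81.6% of its bases at a shift of 21.

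The same windows for the origins that fell most read as follows.
chr6:6919942-6920141 (distal, RREB1 the nearest gene): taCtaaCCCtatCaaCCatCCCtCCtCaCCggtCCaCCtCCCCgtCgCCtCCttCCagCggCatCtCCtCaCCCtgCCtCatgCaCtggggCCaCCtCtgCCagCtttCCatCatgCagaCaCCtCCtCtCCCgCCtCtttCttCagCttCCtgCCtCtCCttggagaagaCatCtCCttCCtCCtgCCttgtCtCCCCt
chr13:114138176-114138375 (near RASA3): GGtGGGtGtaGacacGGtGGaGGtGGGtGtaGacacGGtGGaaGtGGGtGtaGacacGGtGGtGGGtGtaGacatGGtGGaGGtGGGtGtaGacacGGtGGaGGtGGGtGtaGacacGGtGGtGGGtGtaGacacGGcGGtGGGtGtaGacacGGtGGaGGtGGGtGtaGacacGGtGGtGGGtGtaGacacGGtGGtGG
chr13:113744447-113744646 (near GRK1): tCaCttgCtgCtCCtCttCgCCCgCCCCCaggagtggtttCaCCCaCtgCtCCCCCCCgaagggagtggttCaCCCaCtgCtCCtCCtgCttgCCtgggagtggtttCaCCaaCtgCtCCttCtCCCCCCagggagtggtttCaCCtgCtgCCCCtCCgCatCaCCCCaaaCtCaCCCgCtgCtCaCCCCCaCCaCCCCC
chr6:7913185-7913384 (upstream of BLOC1S5-TXNDC5): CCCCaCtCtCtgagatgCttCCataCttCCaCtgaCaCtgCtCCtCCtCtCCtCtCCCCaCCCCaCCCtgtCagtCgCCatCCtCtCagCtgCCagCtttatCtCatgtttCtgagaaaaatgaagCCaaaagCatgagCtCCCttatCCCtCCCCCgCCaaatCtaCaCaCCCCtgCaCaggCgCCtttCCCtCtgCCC
The windows nearest to RREB1, near GRK1 and upstream of BLOC1S5-TXNDC5 are less one-sided, with 26, 38 and 25 G against 93, 92 and 87 C. The window near RASA3 is itself a repeat with 103 G and 20 C, and it matches itself at 72.0% of its bases at a shift of 39. These 4 origins have in common where they lie, on chromosomes 6 and 13, as described with the domains. Among the risen origins printed above, those on chromosome 2 also lie in a domain, a higher one with a median log2 fold of 0.38. Their own log2 folds were 3.28 and 3.19. The risen origins in ABCG1 and near UBE3C lie in none of the domains.

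The origin near SDC1, a syndecan gene, had 32 WT reads and 365 ORC2KO reads, or 4.82 and 46.7 RPM. Its log2 fold of 3.28 (2.76 to 3.85) was the highest among origins with at least 200 reads. The next, chr2:3527308-3528128, went from 23 to 247 reads with a log2 fold of 3.19 (2.57 to 3.88). An origin in an intron of ABCG1, a cholesterol exporter, went from 25 to 227 reads (log2 fold 2.95), and one in an intron of PCBP3, a poly(C)-binding protein gene, from 39 to 329 reads (2.84). Those near UBE3C, a ubiquitin ligase gene, and OSBPL2, an oxysterol-binding protein gene, had 23 and 22 WT reads against 205 and 193 ORC2KO reads. All 6 were called as peaks only in ORC2KO, and all 6 had a GC skew, (G − C)/(G + C), between 0.862 and 0.969 in size. The tables of ORC1KO and ORC5KO share the WT libraries: their 7586 and 5892 rows with the same coordinates all hold the same WT counts. In them, 5 of the 6 do not overlap a listed origin. The origin near OSBPL2 overlaps one in the ORC1KO table, with 13 WT reads, 76 ORC1KO reads and a log2 fold of 2.49. The change at the low end was smaller. The origin nearest to RREB1 fell from 171 to 74 reads, a log2 fold of -1.44 (-1.86 to -1.04), and that near RASA3, a Ras GTPase-activating protein gene, from 198 to 90 reads (-1.37). The origin in the 5′UTR of E2F3 fell from 478 to 224 reads (-1.33).

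Without the minimum of 200 reads, the lowest origins of the table both lay in introns of CSNK1G2, a casein kinase 1 gene on chromosome 19. These extremes were chosen after their values were seen. They fell from 150 to 17 reads, a log2 fold of -3.37 (-4.19 to -2.65), and from 168 to 29 reads, a log2 fold of -2.77 (-3.39 to -2.19). Only 3 origins fell 4-fold or more, while 122 rose by as much. The third was in the 3′UTR of C13orf46, with 92 WT and 26 ORC2KO reads. The highest of all, chr1:3930184-3930681, had 4 WT reads and 96 ORC2KO reads (log2 fold 4.35, 2.95 to 6.26), which leaves its size poorly known.

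Over all 44170 origins the median log2 fold was -0.039 and the quartiles were -0.21 and 0.14. At 1.5-fold, 2056 origins rose (4.65%) and 1583 fell (3.58%). Of the origins, 23592 were called in both lines, 14124 (32.0%) only in ORC2KO and 6454 (14.6%) only in WT. Being called in 1 line alone mostly did not go with a large change in reads. Origins called only in ORC2KO had a median of 11.7 RPM in WT and 12.9 in ORC2KO, a median log2 fold of 0.11, and 11.8% of them rose. Origins called only in WT had a median of 14.3 RPM in WT and 11.1 in ORC2KO, a median log2 fold of -0.35, and 5114 of the 6454 (79.2%) stayed within 1.5-fold. The origins called in both were stronger, with 22.4 and 21.6 RPM, and 97.4% of them stayed within 1.5-fold. Conversely, 1671 of the 2056 risen origins (81.3%) were called only in ORC2KO and 1320 of the 1583 fallen ones (83.4%) only in WT. An origin is listed because it was called in at least 1 line. One called in a single line entered through that line, so the match of call and direction is partly fixed by the selection. Origins called only in ORC2KO lay a median of 33.6 kb from the nearest WT peak, edge to edge, and 17.6% lay within 5 kb of one.

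**Figure D1:**
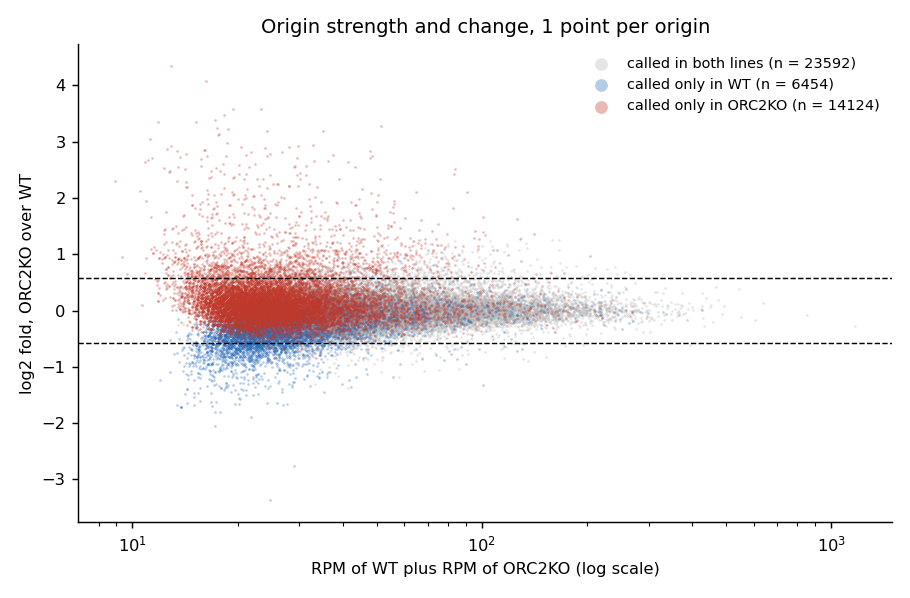
Log2 fold of each origin (ORC2KO over WT, vertical axis) against the sum of its RPM in both lines (horizontal axis, log scale), coloured by the line in which it was called as a peak, with dashed lines at 1.5-fold. The 365 risen and 244 fallen origins called in both lines lie beyond the dashed lines in grey, and the spread is widest among weak origins.

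Both directions of change were most frequent among the weakest origins. In the weakest decile by summed RPM (19.9 or less), 11.6% rose and 10.3% fell. Of that decile 71.0% were called only in ORC2KO and 25.5% only in WT, against 6.11% and 4.80% of the strongest. Entry through 1 line favours a change in its direction, and counting error is largest at low reads. These shares were not taken apart from either. The share that fell dropped at each step of strength, to 2.45% in the fifth decile and 0.702% in the strongest. The risen share did not follow it and lay between 3.21% and 4.57% from the second decile to the strongest. The median log2 fold was 0.049 in the weakest decile, -0.085 in the third and 0.018 in the strongest, so its order was not steady. The difference between the strongest and the weakest decile was -0.032, and it changed sign to 0.066 when origins under 200 reads were left out. The strongest 10% of origins took 28.7% of WT reads and 29.6% of ORC2KO reads. The strongest 4417 origins of WT and those of ORC2KO had 3833 in common (86.8% of each). Among the 441 at the top, 367 were the same (83.2% of each).

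Width went the same way for the fallen share. Of the widest decile (926 bp or more), 8.01% rose and 1.02% fell, against 5.14% and 5.32% of the narrowest. Where origins lay closely packed, with 32 or more within 500 kb, 5.75% rose and 2.13% fell. In the sparsest quintile, with 8 or fewer, 3.77% rose and 5.07% fell. These shares include the lower segments described below and were not taken without them. Those of chromosomes 6 and 18 are sparse, with 248 origins in 26.3 Mb and 44 in 6.95 Mb. That of chromosome 13 has 140 in 2.79 Mb.

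Gene parts differed mainly in how often origins rose. Of 3057 origins in 5′UTRs of protein-coding genes, 0.752% rose (0.502% to 1.13%, Wilson interval) and 2.26% fell. Of 3022 in coding exons, 0.827% rose and 2.78% fell. The 2096 origins within 2 kb upstream of genes rose and fell equally often (2.72% each). Introns held 17828 origins, of which 5.04% rose and 713 fell. The 12693 distal origins, outside protein-coding and lncRNA genes and their upstream 2 kb, rose most often, at 6.53% (6.11% to 6.97%), and 3.42% of them fell. In lncRNA genes, 4.46% of 4823 origins rose and 4.04% fell. The 651 origins in 3′UTRs rose in 1.38% and fell in 4.76% (3.37% to 6.68%). The share called only in ORC2KO also differed, from 17.7% in coding exons and 18.8% in 5′UTRs to 35.7% of distal origins. Entry through ORC2KO alone favours a rise, so the risen shares by part are partly fixed by the selection. Distal DNA held 40.3% of the risen origins and 28.7% of all, while introns held 43.7% of the risen, 45.0% of the fallen and 40.4% of all. The medians moved far less than these shares: 5′UTR origins had a median log2 fold of -0.043, upstream origins -0.026 and distal origins -0.023. Upstream and 5′UTR origins together differed from all origins by 0.0017 in median log2 fold and distal origins by 0.016. The quartiles of 5′UTR origins, which had a median of 25.7 RPM in WT, were -0.19 and 0.091, and those of distal origins, with 15.8 RPM, were -0.21 and 0.19.

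**Figure D2:**
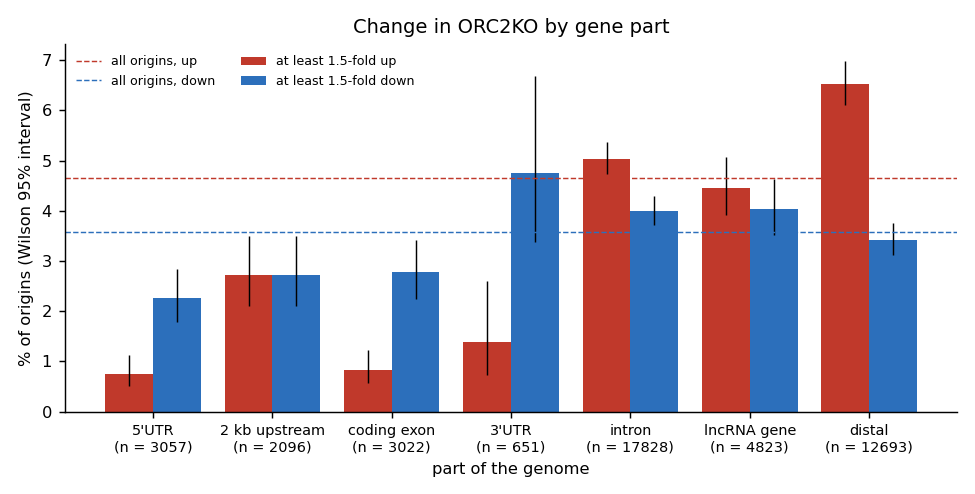
Percent of origins at least 1.5-fold higher (red) or lower (blue) in ORC2KO by gene part, with 95% Wilson intervals as bars and the shares of all origins, 4.65% and 3.58%, as dashed lines. The red bars of 5′UTRs (0.752%) and coding exons (0.827%) lie below the red line, and that of distal origins (6.53%) lies above it.

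Origins of low GC content rose more often than GC-rich ones. In the decile with the least GC (43.4% or less), 7.54% of origins rose, in the third decile 8.49%, and in the decile with the most GC (64.8% or more) 0.589%. The fallen share stayed between 3.03% and 4.21% in all 10. Of the GC-poorest decile 51.7% were called only in ORC2KO, against 16.6% of the richest. The median log2 fold was 0.040 in the GC-poorest decile, -0.070 in the ninth and -0.060 in the richest. Origins with the composition of CpG islands (observed over expected CpG above 0.6 and at least 50% GC) numbered 4513, and 3.48% of them rose and 3.90% fell. Motifs of G-quadruplexes, 4-stranded structures of G-rich DNA, were sought as 4 runs of at least 3 G with gaps of 1 to 7 bases on either strand, a pattern held by 53.1% of all origins. Of origins that held one 3.02% rose and 2.49% fell, and of those without one 6.51% rose and 4.82% fell. Called only in ORC2KO were 25.3% of those with a motif and 39.5% of those without. Entry through ORC2KO alone favours a rise, so the risen shares by GC content and motif are partly fixed by the selection.

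The risen share ranged more widely over strand asymmetry than over gene parts. The share that rose was 2.96% for an absolute GC skew under 0.1 and lowest, at 1.31%, for 0.3 to 0.4. It was 7.16% for 0.5 to 0.6, 20.2% for 0.6 to 0.7 and 34.4% for 0.7 to 0.8. From 0.8 to 0.9 it was 60.2%, and for 0.9 or more 67.3%. The median log2 fold went from -0.079 in the bin of 0.3 to 0.4 up to 0.82 in that of 0.9 or more. Of the 2925 origins with a skew of 0.6 or more, 1166 rose (39.9%) and 12 fell (0.410%), and their median rose from 16.4 RPM in WT to 23.8 in ORC2KO. Of the other 41245, 890 rose (2.16%) and 1571 fell (3.81%). Of the skewed origins 52.7% were called only in ORC2KO, against 30.5% of the others. Such origins entered the list through ORC2KO alone, which favours a rise. The sign of the skew made no difference that the intervals resolve. Origins rich in G on the plus strand rose in 40.5% (38.0% to 43.1%) and those rich in C in 39.2% (36.8% to 41.7%). Relative to the gene, 43.0% of 719 skewed origins with G on the coding strand rose, against 35.9% of 630 with G on the template strand, with median log2 folds of 0.49 and 0.45. TA skew behaved alike: 26.2% of 1685 origins with a TA skew of 0.5 or more rose, against 2.82% of those under 0.1. These groups differed in GC skew as well, with medians of 0.537 and 0.305 in size. Of them 53.6% and 28.3% were called only in ORC2KO.

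**Figure D3:**
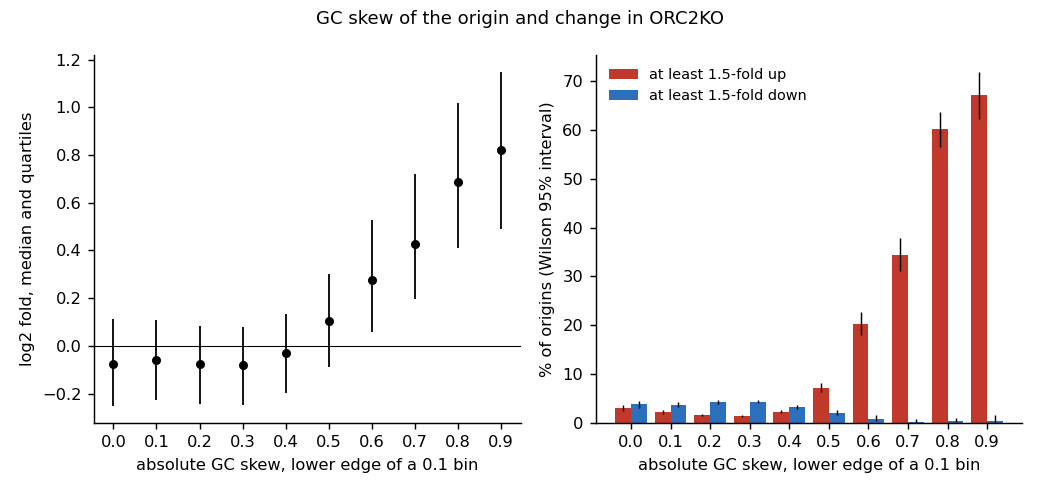
Left, log2 fold of origins (median, with quartiles as bars) by absolute GC skew in bins of 0.1; right, percent of origins at least 1.5-fold higher (red) or lower (blue) in ORC2KO with 95% Wilson intervals. The red bars shrink from 2.96% in the 0.0 bin to 1.31% in the 0.3 bin and then grow to 67.3% in the 0.9 bin. The blue bars stay at 4.33% or less in every bin.

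The share of skewed origins that rose was high in most parts. It was 40.5% of 1277 in introns, 41.3% of 1175 distal, 37.0% of 316 in lncRNA genes, 39.7% of 68 upstream of genes and 21.0% of 62 in coding exons. Parts held very unequal numbers of them, with 15 in 5′UTRs, of which 2 rose, and 12 in 3′UTRs, of which 5 rose. Among origins of lower skew the range over parts was smaller, from 0.405% in coding exons, 0.626% in 3′UTRs and 0.690% in 5′UTRs to 2.30% in introns and 2.99% distal.

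Short tandem repeats marked much of the same set. Exact repeats were sought in any rotation and on both strands, with at least 12 copies of A, 8 of a dinucleotide, 5 of a trinucleotide or 4 of a longer unit. They lay in 15.7% of all origins, 48.2% of the risen ones (991 of 2056) and 4.93% of the fallen ones (78 of 1583). Repeats of ATCC were in 1004 origins, of which 305 rose (30.4%, 27.6% to 33.3%), with a median of 21.2 RPM in WT and 29.1 in ORC2KO. The share was higher for some rarer units, with 29 of 36 origins for AATGG, the unit of human satellites II and III, 16 of 21 for ACTCC and 46 of 88 for ATC. It was 118 of 337 for ACC, 33.5% of 275 for AAAG, 20.5% of 897 for AAGG and 20.2% of 420 for AC. Runs of A stood near the share of all origins, with 37 of 661. Repeats of CCG, a unit common in 5′UTRs, went the other way: of 251 origins none rose (Wilson interval up to 1.51%), and 15 fell (5.98%). In all, 1558 of the 2056 risen origins (75.8%) had a strong GC skew or a tandem repeat, against 19.1% of all origins and 5.69% of the fallen. How many origins with a repeat were called only in ORC2KO, which favours a rise, was not taken. The CCG repeats have little skew (median 0.218 in size) and AATGG repeats much (0.760).

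Some of the fallen origins lay together in long segments. In 461 of the 473 blocks of 5 Mb with at least 20 origins, the median log2 fold lay between -0.23 and 0.20. Of the other 12, 6 were lower and 6 higher, on 6 chromosomes. On each of these chromosomes the edges were set at the run of consecutive origins that best split the log2 folds into 2 levels by least squares. These edges were drawn from the values they describe.

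**Figure D4:**
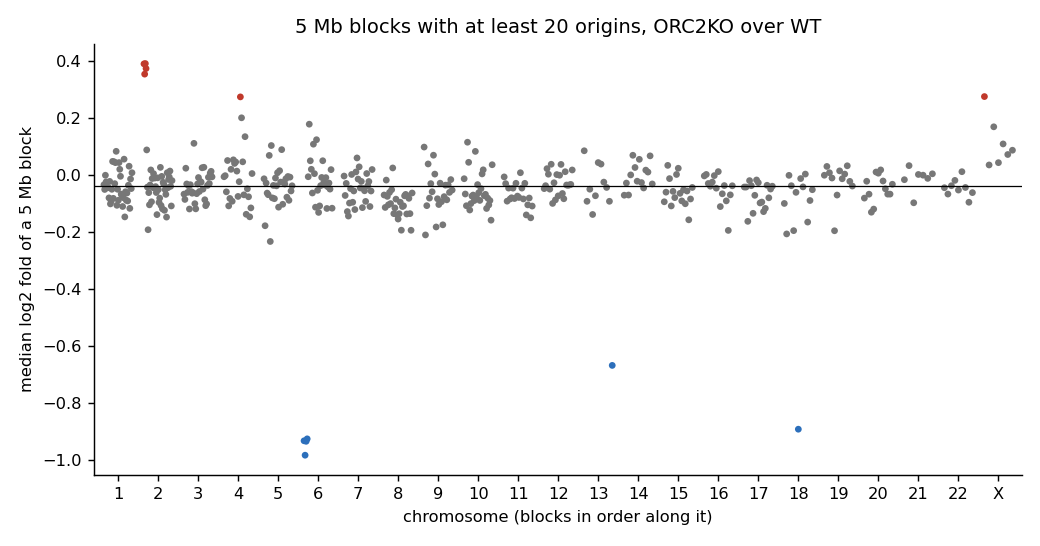
Median log2 fold of 5 Mb blocks with at least 20 origins, ordered along each chromosome, with the median of all origins (-0.039) as a line. The 6 blue points, 4 of them on chromosome 6 and 1 each on 13 and 18, lie at -0.67 or lower, and the 6 red points on chromosomes 2, 4 and X lie at 0.27 or higher.

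The widest lower segment covered the end of the short arm of chromosome 6, chr6:280827-26597768, 26.3 Mb with 248 origins. They held 33139 WT reads and 21792 ORC2KO reads, and their median log2 fold was -0.94 (quartiles -1.18 and -0.71), a median ratio of 0.519. Of them 244 lay below 0, 209 fell, 1 rose, and 201 were called only in WT. The 10 origins next to its inner edge on the inside had a median of -0.86, and the 10 on the outside, 649 kb further on, -0.13. The level was alike in introns (-0.97, 100 origins), distal DNA (-0.90, 69) and 5′UTRs (-0.79, 13). Outside it the 1692 other origins of chromosome 6 had a median of 0.030.

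The end of the long arm of chromosome 13, chr13:111440330-114235193, held 140 origins in 2.79 Mb, with 31208 and 23569 reads. Their median log2 fold was -0.74, and 98 of them fell. The step was abrupt: the origins on the 2 sides of the edge lie 4.87 kb apart, with a median of -0.71 in the first 10 inside and -0.049 in the last 10 outside. The lower segment of chromosome 18 lay inside the chromosome, at chr18:35217230-42166050, with 44 origins in 6.95 Mb and a median log2 fold of -0.91. All 44 were below 0 and 39 fell. The flanking origins, 10 on each side and at least 1929 and 3041 kb away, had medians of -0.11 and -0.12. Together the 3 segments held 432 origins, of which 1 rose, and 346 of the 1583 fallen origins (21.9%). In the ORC1KO and ORC5KO tables, which share the WT libraries, the medians over the same intervals were 0.031 and -0.026 on chromosome 6, -0.044 and -0.016 on chromosome 13, and 0.017 and -0.035 on chromosome 18.

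Higher segments were shallower. The first 21.4 Mb of chromosome 2, chr2:10168-21371919, held 586 origins with 77832 WT reads and 122070 ORC2KO reads and a median log2 fold of 0.38 (quartiles 0.21 and 0.58), a median ratio of 1.30. Of them 553 lay above 0, 144 rose and 0 fell. Inside the edge the last 10 origins had a median of 0.41, and outside, 16.6 kb further on, the next 10 had -0.19. On chromosome 4, chr4:102613977-106443650 held 37 origins, all above 0, with a median of 0.46. On chromosome X, chrX:549339-3792669 held 72 origins with a median of 0.37, of which 48.6% had a GC skew of 0.6 or more, against 6.62% of all origins, 10.6% in the chromosome 2 segment and 0% in that of chromosome 4. The 400 other origins of chromosome X had a median of 0.088. The 10 before and the 10 after the segment had medians of 0.0052 and 0.069. The medians in the ORC1KO and ORC5KO tables were -0.0086 and 0.0080 for the chromosome 2 interval, 0.24 and 0.022 for chromosome 4, and 0.47 and 0.22 for chromosome X. The 3 higher segments held 178 of the 2056 risen origins (8.66%). Outside all 6 segments, 1877 origins rose and 1237 fell, 4.36% and 2.87% of 43043.

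**Figure D5:**
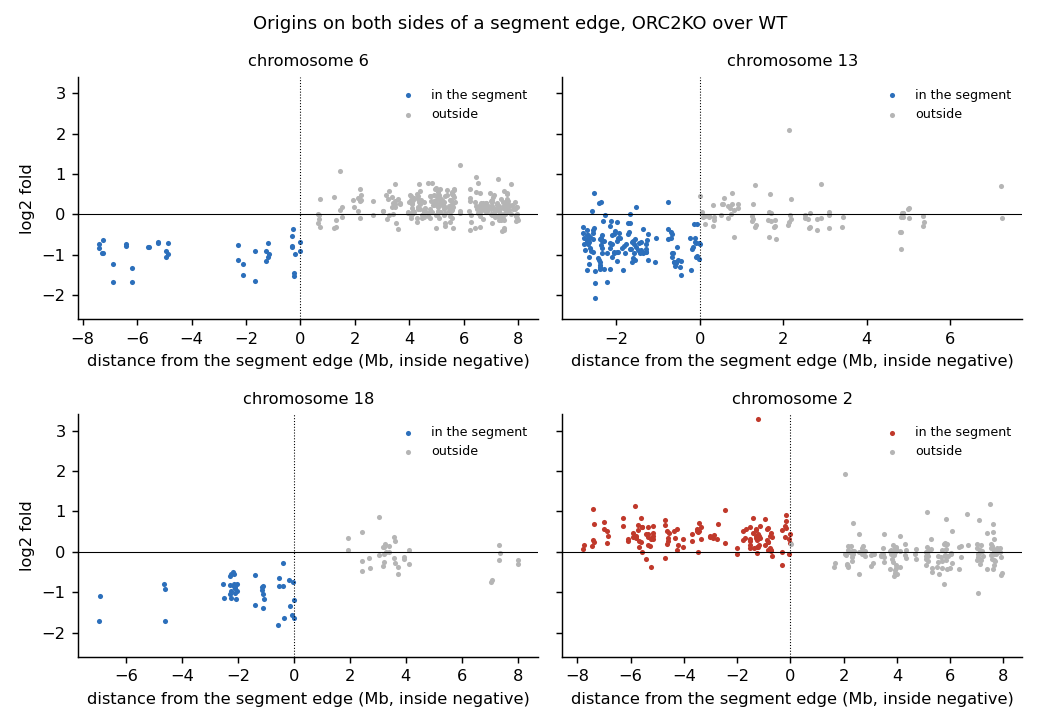
Log2 fold of single origins within 8 Mb of a segment edge on chromosomes 6, 13, 18 and 2, against the distance from the edge in Mb (negative inside the segment). Origins inside the lower segments (blue) lie mostly between -0.5 and -1.5 and those outside (grey) around 0, with the change at the edge in each panel; the red points of chromosome 2 lie mostly between 0 and 1.

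Shorter stretches were sought, after the values had been seen, as runs where the median of 9 consecutive origins lay at least 0.4 from 0, outside the segments. There were 6 below 0 and 13 above. The one with the most origins was chr19:1755483-2057157, 302 kb with 29 consecutive origins in and around ONECUT3, ATP8B3, REXO1, KLF16, ABHD17A, SCAMP4, CSNK1G2, BTBD2 and MKNK2. All 29 lay below 0, with a median log2 fold of -0.67, 8423 WT reads and 6224 ORC2KO reads, and 19 of them fell. The 6 origins before and the 6 after it had medians of 0.46 and 0.34. In the ORC1KO and ORC5KO tables the medians there were -0.31 and -0.032. A stretch of 7 origins in and past WWOX, the gene of the fragile site FRA16D, had a median of -0.51, against 0.067 and 0.0068 in the other tables. Its surroundings were low as well, with medians of -0.20 in the 6 origins before it and -0.22 in the 6 after. Among the stretches above 0 were some beside centromeres, such as chr20:31055800-31290068 (6 origins, median 0.78) and chr21:10681507-10746100 (6 origins, median 0.80), where the absolute GC skew had medians of 0.638 and 0.811. In the ORC1KO and ORC5KO tables the medians were 0.80 and 0.45 over the first and 0.95 and 0.50 over the second, from 2 to 4 origins each. Another overlapped parts of MUC2 and MUC5AC, mucin genes with repeated exons, with 10 origins and a median of 0.43, against 0.50 and 0.10 in those tables. The 6 origins before this stretch had a median of 0.18 and the 6 after it 0.37.

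Distance from chromosome ends showed the risen share again. It was 6.63% within 1 Mb of an end, 7.73% from 1 to 2.5 Mb, 6.81% from 2.5 to 5 Mb and 3.61% beyond 20 Mb. The fallen share was 5.49% within 1 Mb and 3.17% beyond 20 Mb. By chromosome the risen share ran from 2.36% on chromosome 15 and 2.46% on chromosome 3 to 8.10% on chromosome 2 and 8.89% on chromosome 21. The fallen share was 12.8% on chromosome 6, 13.8% on chromosome 13 and 7.39% on chromosome 18, and on the other chromosomes it ran from 0.847% on X to 4.14%. These shares, by distance and by chromosome, include the segments and were not taken without them. The segments of chromosomes 2, 6, 13 and X come within 0.010, 0.28, 0.13 and 0.55 Mb of a chromosome end.

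Summed over the origins in a gene and its upstream 2 kb, most genes changed little. Of 19970 protein-coding genes, 9687 had an origin and 8786 had at least 200 reads in both lines together. Their median log2 fold was -0.025 (quartiles -0.14 and 0.085), and 74 rose (0.842%) and 93 fell (1.06%). Which direction had more genes depended on the scaling: with median-of-ratios size factors 95 rose and 79 fell, and with TMM factors 94 rose and 79 fell. Of the 93, 54 lay in the 3 lower segments, where 65 genes had enough reads. Of the 74, 12 lay in the higher segments, where 66 genes had enough reads. A risen origin rarely moved its gene, since 830 genes held at least 1 and 74 of those genes rose as a whole.

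The lowest genes with at least 500 reads came from the lower segments. E2F3, a transcription factor that drives entry into S phase, had 618 WT reads and 276 ORC2KO reads in 2 origins, or 93.1 and 35.3 RPM. Its log2 fold was -1.40 (-1.61 to -1.19), 2.63-fold lower, against -0.40 and -0.17 in the ORC1KO and ORC5KO tables. TXNDC5, an endoplasmic reticulum thioredoxin, had 442 and 220 reads in 3 origins and a log2 fold of -1.24. Its readthrough gene BLOC1S5-TXNDC5 takes the same reads. ATXN1, which encodes ataxin 1, had 8 origins, all 8 of which fell, with 783 and 435 reads (-1.08). SLC22A23, a transporter gene, had 5 origins, all fallen, and a log2 fold of -1.08, and GMPR, GMP reductase, had 4, also all fallen, and -0.97. C13orf46 on chromosome 13 had a log2 fold of -1.07. FHOD3, a formin gene on chromosome 18, fell in 7 of its 8 origins, with 904 and 523 reads (-1.02).

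The highest genes had 1 to 4 origins each. ECSCR, an endothelial surface protein gene, had 125 WT reads and 500 ORC2KO reads in 2 origins, a log2 fold of 1.77 (1.48 to 2.06). The overlapping gene ENSG00000279686 takes the same reads. AMN, whose product serves vitamin B12 uptake with cubilin, had a single origin with 263 and 793 reads (1.36). ANKRD30BL had 1 origin with 183 and 526 reads (1.29). CLPTM1L, a membrane protein gene next to TERT, had 3 origins with 535 and 1356 reads and a log2 fold of 1.11 (0.96 to 1.25). P2RY8, a G-protein-coupled receptor gene in the chromosome X segment, had 274 and 643 reads (1.00), LBHD2 155 and 351 (0.95), and FCER2, the low-affinity IgE receptor CD23, 282 and 638 (0.94). These genes were also higher in the ORC1KO and ORC5KO tables where they had a value. There AMN had log2 folds of 1.08 and 0.72, CLPTM1L 0.87 and 0.31 and P2RY8 0.99 and 0.59. LBHD2 had 0.88 and 0.56 and FCER2 0.78 and 0.46. ECSCR had 1.90 in the ORC1KO table alone and ANKRD30BL 1.01 in the ORC5KO table alone.

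Set against the origins within 1 Mb around them, the genes that stood lowest were not those of the segments. Inside a segment the surroundings are shifted too, at -1.02 around TXNDC5 and -0.85 around FHOD3. The measure thus largely takes out the shift of a segment. CSNK1G2, with 1576 WT and 988 ORC2KO reads in 6 origins, had a log2 fold of -0.91, which was 0.89 below the -0.022 of its surroundings. REXO1, an RNA exonuclease gene, and BTBD2 in the same stretch of chromosome 19 had log2 folds of -0.79 and -0.69, against -0.049 and -0.025 around them. CBR4, a carbonyl reductase gene on chromosome 4, had 1 origin with 363 and 236 reads (-0.85, surroundings -0.060), and its log2 folds in the ORC1KO and ORC5KO tables were -0.74 and -0.13. MX2, an interferon-induced GTPase gene, had 336 and 246 reads (-0.68, surroundings -0.016). At the upper end ECSCR, ENSG00000279686, ANKRD30BL, AMN and CLPTM1L stood 1.09 to 1.79 above their surroundings. E2F3 had 8 other origins within 1 Mb, too few for this measure.

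Few genes of the machinery that ORC works with could be read. Of all genes with enough reads 0.842% rose and 1.06% fell, so in lists this short a count of 0 is near that share. Of 17 genes of licensing (ORC subunits, CDC6, CDT1, MCM2–7 and their regulators), 8 had an origin and 5 enough reads, and 0 rose or fell. CDT1, the loader partner of CDC6, was lowest with 260 WT and 270 ORC2KO reads (log2 fold -0.18, -0.43 to 0.072), and MCM7, a helicase subunit, highest with 331 and 419 (0.11, -0.10 to 0.32). LRWD1, an ORC-associated protein gene, had 155 and 182 reads (-0.0020). Of 21 firing genes, 7 had enough reads and 0 changed by 1.5-fold, from TICRR, a replication initiation factor, at -0.23 to MCM10 at 0.13. Of 24 checkpoint and S-phase genes, 10 had enough reads and 1 fell, E2F3 in the chromosome 6 segment. CHEK2, a checkpoint kinase, was highest at 0.21 with 475 and 646 reads. E2F1 had 211 and 182 reads (-0.45). All genes had a median of -0.025, and the medians of the 3 lists were -0.0020, -0.026 and -0.056.

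Genes whose origins were mapped in classical work had log2 folds near 0 where they could be read. MYC had 426 WT and 499 ORC2KO reads in 3 origins, 64.2 and 63.9 RPM (log2 fold -0.0054, -0.19 to 0.18). LMNB2, the lamin B2 gene, had 2112 and 2322 reads in 4 origins (-0.097, -0.18 to -0.011). The other 10 genes of that list had fewer than 200 reads or no origin.

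Large genes at common fragile sites, where replication is slow under stress, did not change by 1.5-fold as whole genes. With 0.842% of all genes risen and 1.06% fallen, 0 among 15 is near the general share. The 15 with enough reads had a median of -0.069. The ends were NBEA at -0.35 (167 and 154 reads) and DLG2 at 0.53 (149 and 253 reads, 0.23 to 0.83), with CNTNAP2 at 0.53 from 591 and 1002 reads in 5 origins. WWOX was at -0.34 with 311 and 288 reads in 4 origins (-0.58 to -0.11). Of 20 genes of colon cancer and colon epithelium, 0 changed by 1.5-fold, again near the general share, with a median of -0.012. TGFBR2, a TGF-β receptor, was lowest (-0.20) and LGR5, a stem cell receptor, highest (0.29, -0.076 to 0.67), while MUC2, the main intestinal mucin, had 1377 and 1920 reads in 5 origins (0.25, 0.15 to 0.35).

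In the gene families read here, no gene passed 1.5-fold, where 0.842% of all genes rose and 1.06% fell. Of 77 zinc finger genes of chromosome 19, 0 changed by 1.5-fold and 34 lay above the median of all genes, from ZNF525 at -0.43 to ZNF383 at 0.43. Of 19 ribosomal protein genes, RPL38 was lowest (-0.31) and RPL3L highest (0.26). The 26 HOX genes with enough reads had a median of -0.12, and 4 of them lay above the median of all genes, with HOXD13 at -0.28 and HOXB5 at 0.029 at the ends. Neighbouring HOX genes share origins, so they are not separate measurements. Of 69 histone genes, 5 had enough reads, from -0.31 for H3C12 and H2AC17, which share an origin, to 0.12 for H2AC21 and H2BC21. The 22 protocadherin genes with reads all take their count from the same 3 origins, with 390 WT and 485 ORC2KO reads and a log2 fold of 0.081 (-0.11 to 0.28).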

How the data were processed

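SNS-seq reads of WT and ORC2KO cells were trimmed with Trim Galore 0.6.4, aligned to GRCh38 with Bowtie and used to call peaks with MACS2 (versions of these not given here), per the labels and the study's methods. The authors kept the peaks found in both replicates as origins, without a height, and deposited counts: whole, not normalized reads of each line in the joined origins of both lines, with replicates merged. The handling of duplicate reads is not given in the sources used here.

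Rows on other contigs (273, with 1.06% of WT and 1.05% of ORC2KO reads) and 4 rows on chromosome Y count toward the totals only. Origins were assigned by any overlap, in the order 5′UTR, 2 kb upstream, coding exon, 3′UTR, intron, lncRNA gene, distal, from basic transcripts of GENCODE release 44. Gene reads are sums over overlapping rows. Named genes were ORC2, the ends of each gene list, the 8 highest and 8 lowest genes with at least 500 reads, the 5 highest and 5 lowest against their surroundings, and the 6 highest and 6 lowest origins with at least 200 reads. The comparison, the lists and these rules were chosen with earlier results of these data known. The calls were tested on simulated data whose planted changes were larger than 1.5-fold. The simulation held counting error only, so it says nothing on the spread of replicates. The ORC1KO and ORC5KO tables share the WT libraries. Single folds have Clopper–Pearson and shares Wilson intervals. Alternatives covered the scaling, minimum reads, GC content, shifted blocks, threshold and overlap rules. Tools were Python 3.11.15 with scipy 1.17.1, pandas 2.3.3, matplotlib 3.10.9, pysam 0.24.0 and numpy 2.4.6, and R 4.3.3 with edgeR 4.0.16 for TMM factors only.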

Additional observations from a re-analysis of the deposited data

How the results depend on the processing

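No paired analysis was possible because the columns merge the 2 replicates of a line, and for the same reason no replicate could be left out. No value could be given for ORC2 under any setting, since no origin overlaps it. Of 118 alternative values of 13 results, 91 stayed within 1.5-fold (counts) or within the interval of the median. That count is no measure of stability, since some of these values could hardly differ. A minimum of 50 reads changed none of the 13 results. The 3 other scalings moved the median of all origins from -0.039 to between -0.025 and 0. The risen origins then numbered 2135 to 2321, the fallen 1265 to 1460, the risen genes 82 to 95 and the fallen genes 79 to 87. Values given relative to all origins cannot move with the scaling, though they are counted among the 91, and the calls by line do not use it. With at least 200 reads, 1127 origins rose, 430 fell, 5415 were called only in ORC2KO and 2580 only in WT, the skewed origins stood 0.48 above all, the lowest block stood at -0.66, and the strongest less the weakest decile reversed to 0.066. At 2-fold, 631 origins rose and 214 fell, and 16 genes rose and 14 fell. With the GC correction, upstream and 5′UTR origins stood at 0.019, distal origins at 0.0073, the GC-richest decile reversed to 0.0011 and the strongest less the weakest decile to 0.020. With the midpoint deciding the gene part, upstream and 5′UTR origins reversed to -0.0043. Without the shifted blocks, the lowest and highest remaining blocks stood at -0.19 and 0.24 and 46 genes fell. Settings chosen after seeing the data were the removal of the 6 segments, after which the blocks stood at -0.19 and 0.22 and 39 genes fell, and the removal of origins with a GC skew of 0.6 or more. Without the latter, 890 origins and 25 genes rose, upstream and 5′UTR origins stood at 0.015, distal origins at 0.0073 and the GC-richest decile at -0.0042. The cause was not tested where a value moved beyond these limits, except that fewer origins enter under a filter. Depth limits the weakest decile most, with a median of 8.88 RPM in WT.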
